A study of Mus musculus with 9 samples.

Results

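The genes described here are 4 Wnt ligands, Wnt2b, Wnt5a, Wnt5b and Wnt7b, and 6 genes that canonical Wnt signalling is known to switch on, Axin2, Lef1, Tcf7, Nkd1, Sp5 and Notum, in the mouse optic cup at E11.5. They were chosen by name, with earlier results of these data known. A gene's probe sets were those carrying its symbol alone in the platform annotation, and the brightest of them on average across the 9 arrays gives its main value. In this way 9 of the 10 genes had 19 probe sets, of 18193 genes with a probe set in all. Tcf7 had none under its symbol alone and is not analysed here. Of the 9 genes, 7 passed a filter on dim signal and were tested among 12770 genes, and Wnt2b and Sp5 did not.

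The study cut 3 regions of the cup by laser microdissection and hybridised their RNA to Affymetrix mouse arrays, with 3 arrays per region lettered A, B and C. The fissure group holds the margin of the optic fissure, the ventral cleft whose edges later fuse, taken as 5 cell diameters of cup on the label of sample A. The nasal and temporal groups are the centre of each side, again as given on the label of sample A of each, and no genotype, strain or treatment is given for any group. The labels call the 3 arrays of a region biological replicates but do not say which embryos each came from or how many were pooled, so p-values measure only the spread between these samples.

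Wnt ligands are secreted lipid-modified proteins that bind Frizzled receptors. In the canonical branch, binding stops the destruction of beta-catenin, which enters the nucleus and activates genes together with the DNA-binding proteins of the TCF/LEF family. Several of the genes activated encode inhibitors of the pathway itself, among them Axin2, Nkd1 and Notum. In the developing eye, canonical signalling is known for its part in the pigment epithelium and at the peripheral margin of the cup, and closure of the optic fissure depends on keeping it in bounds.

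Values are linear intensities of probe sets, and array medians ran from 27.5 to 30.3. Of 8 neural retina and optic cup markers, 7 had a probe set, and all 7 lay above the array's 40th percentile (15.7 to 17.5) on every array. Their sum was 6246.9 to 6758.6 on the fissure, 8124.5 to 8619.3 on the nasal and 7780.7 to 8513.3 on the temporal arrays. Pax6 read 1442.5 to 1776.1 on the fissure arrays and 2797.8 to 3767.4 on the others. Lhx2 went the other way, with means of 856 in fissure, 557 in nasal and 557 in temporal samples. The ventral eye homeobox gene Vax1 read 559 to 733 on the fissure arrays, against 14.9 to 43.6 on the nasal and 29.5 to 55.8 on the temporal arrays, and Foxd1, a temporal gene, read 850 to 1004 on the temporal arrays and at most 102.5 elsewhere. On the first principal component fissure array B lay at -9.40, nearer the nasal and temporal arrays (4.63 to 29.5) than fissure arrays A and C were, at -38.6 and -43.0. The 3-prime over 5-prime Gapdh signal, which follows RNA quality and labelling, was 4.93 to 15 on the fissure, 4.90 to 8.77 on the nasal and 4.46 to 7.42 on the temporal arrays, and in each region it was lowest on array B.

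One of the 7 tested genes rose in the fissure and none fell. It was Wnt7b, a ligand that in the eye is known as a product of macrophages near the regressing hyaloid vessels and that also acts in the forebrain. The threshold was an adjusted p below 0.05 in limma, with Benjamini-Hochberg adjustment over all 12770 genes, and 8.60% of these genes passed it in fissure minus the mean of nasal and temporal, 5.72% higher and 2.88% lower. Over the 7 genes the median log2 change was -0.02, beside 0.04 over all genes tested. Wnt5a, Wnt5b, Axin2, Lef1, Nkd1 and Notum did not pass. In fissure minus nasal and in fissure minus temporal, Wnt7b was again the one gene called, against 6.37% and 5.36% of all genes. Nasal minus temporal gave 0 calls among the 7 genes in limma, 0 at an unadjusted p below 0.05, and 0 in each of the 20 other settings tried, against 0.0470% of all genes.

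**Figure D1:**
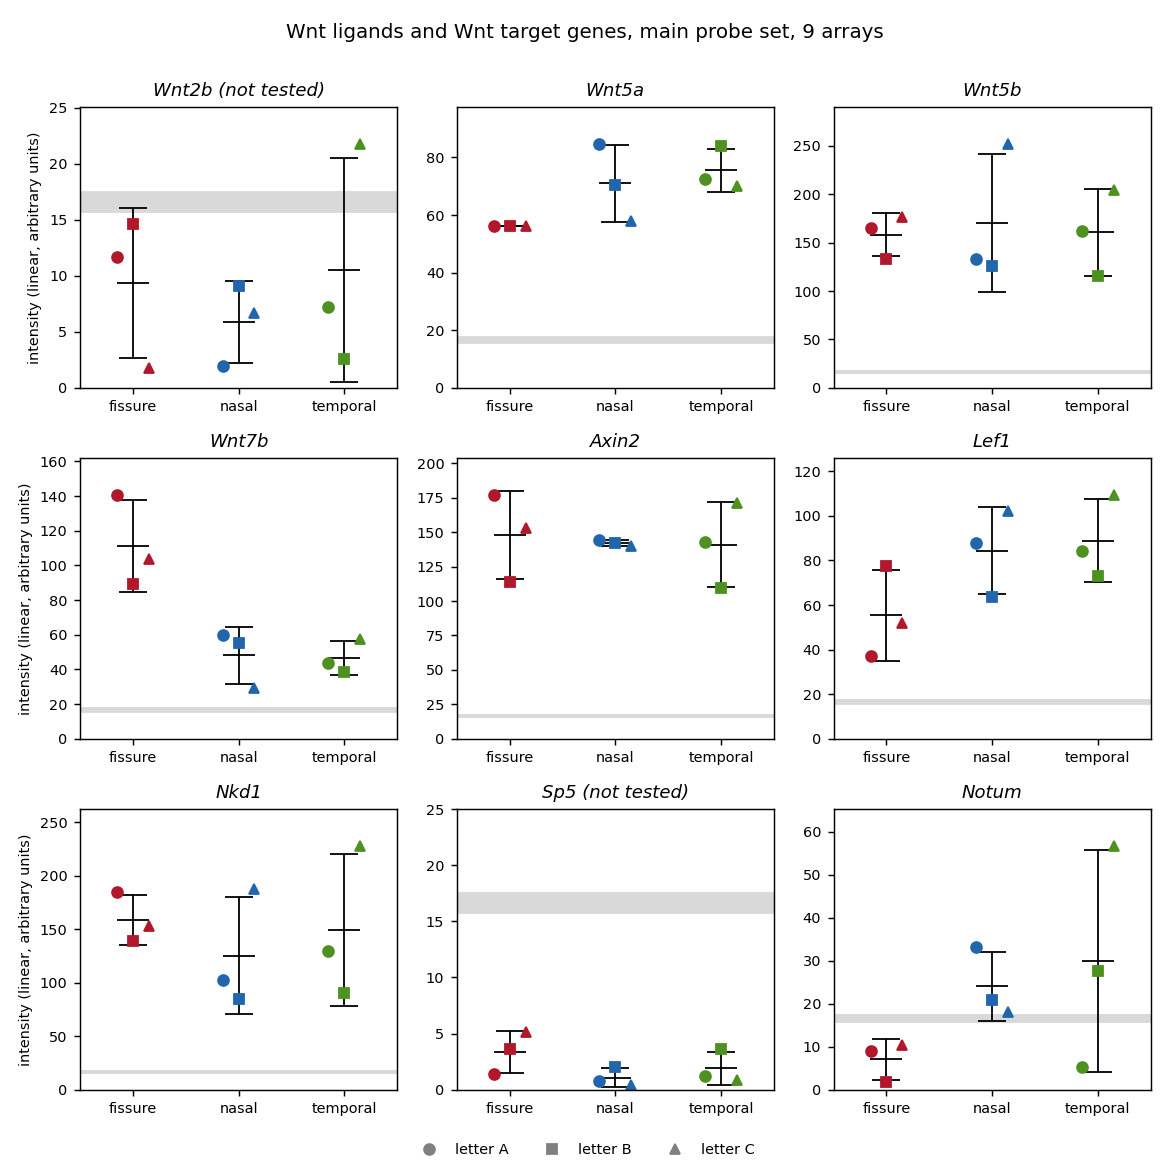
Intensity (linear, arbitrary units) of the main probe set of the 9 genes on each array, by region. Points are arrays, with 1 marker shape per letter, horizontal lines and bars are mean and SD over 3 arrays, and the grey band spans the arrays' 40th percentiles (15.7 to 17.5). Wnt7b separates the fissure arrays from the others, while Axin2, Wnt5b and Nkd1 overlap between regions and Wnt2b and Sp5 lie mostly or wholly under the band.

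Among the ligands, Wnt7b read 140.8, 89.2 and 103.6 on fissure arrays A, B and C, against 59.7, 55.4 and 29.0 on the nasal and 43.6, 38.3 and 57.4 on the temporal arrays. Every fissure array lay above every other array, as was so for 8.41% of all genes tested. Means were 111 ± 26.6 for fissure, 48.0 ± 16.6 for nasal and 46.4 ± 9.86 for temporal arrays (SD, n = 3 each). On the log2(intensity + 16) scale, which understates the change of dim genes, the rise over the mean of nasal and temporal was 1.01 (SE 0.20, limma adjusted p = 0.00855), or 2.02-fold with a 95% interval from 1.49 to 2.74. It was 1.01 over nasal (SE 0.23, adjusted p = 0.0240) and 1.02 over temporal (SE 0.23, adjusted p = 0.0252). Nasal and temporal cup differed by 0.01 (95% interval -0.50 to 0.52).

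The rise of Wnt7b was present in each letter, at 1.05, 0.56 and 1.41 over nasal and 1.40, 0.95 and 0.70 over temporal for A, B and C. Of the genes tested, 2.29% rose by more in fissure minus the mean of nasal and temporal. Without fissure array A the change was 0.85 and the adjusted p in limma 0.0658, the highest in a range from 2.19e-04 over 20 other settings, and the 19 others stayed past the threshold. The separate comparisons were less firm, and 5 of 20 settings lost the call against nasal and 7 against temporal. A second, dimmer probe set of Wnt7b read 0.7 to 14.5 and lay under the 40th percentile on all 9 arrays, so it was not tested.

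Markers of some other cells moved with Wnt7b, and those of others did not. Of 14 macrophage and leukocyte markers, 13 were tested and all 13 rose in the fissure, though Aif1, C1qa and C1qc passed the filter on the 3 fissure arrays alone, so that a rise was built into their being tested. The 14 markers' summed intensity was 2963 to 3569 on the fissure, 552 to 818 on the nasal and 432 to 702 on the temporal arrays, and none of the 14 lay under the 40th percentile on all arrays. Lens markers summed to 2515 to 3656 on the fissure arrays, against 682 to 739 on the nasal and 606 to 1298 on the temporal arrays, and 5 of the 7 tested rose, with Cryga, Foxe3 and Mip under the 40th percentile on all arrays. Against temporal cup alone 3 of the 7 rose. Much of the lens sum was Maf, at 1047 to 1700 on the fissure arrays and 201 to 319 on the others, while Prox1 averaged 70.3, 71.4 and 72.5 in fissure, nasal and temporal samples. Ciliary margin markers summed to 16509 to 18467 on the fissure, 13589 to 13847 on the nasal and 12933 to 14362 on the temporal arrays. Of these 6 markers 2 rose and 0 fell. Pigment epithelium markers went both ways, with 2 of 12 higher and 4 lower, and their sums overlapped between regions. Otx1 is on both of these lists. Of the tested markers, 0 of 6 for endothelium and 0 of 4 for erythroid cells were called, and of 6 for surface ectoderm 1 rose and 2 fell. The 1 that rose, Cdh1, read 17.6 to 37.9 on the fissure arrays and at most 13.5 elsewhere. It passed the filter on the 3 fissure arrays alone, so a rise was built into its being tested. The part of any of these cells in the Wnt7b values was not tested. In RNA from captured tissue, more cells of a type and more RNA per cell cannot be told apart.

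Over the 9 arrays, the genes whose log2 values were most like those of Wnt7b were Abca1, Cpeb1 and Lyz1, with Pearson r of 0.974, 0.971 and 0.963, given as a description over arrays that share regions and letters. Abca1, a cholesterol transporter, read 380, 259 and 295 on the fissure arrays and 89.9 to 140.1 on the others. Lyz1, a lysozyme gene whose probe set may also bind RNA of its near copy Lyz2, read 86.3 to 180.2 on the fissure arrays and 1.3 to 15.9 on the others. It passed the filter on the 3 fissure arrays alone, so a high fissure value was built into its being tested. Cpeb1, which encodes a regulator of mRNA translation, read 41.5 to 58.6 against 21.6 to 36.9, and its change of 0.51 did not pass (adjusted p = 0.0618).

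**Figure D2:**
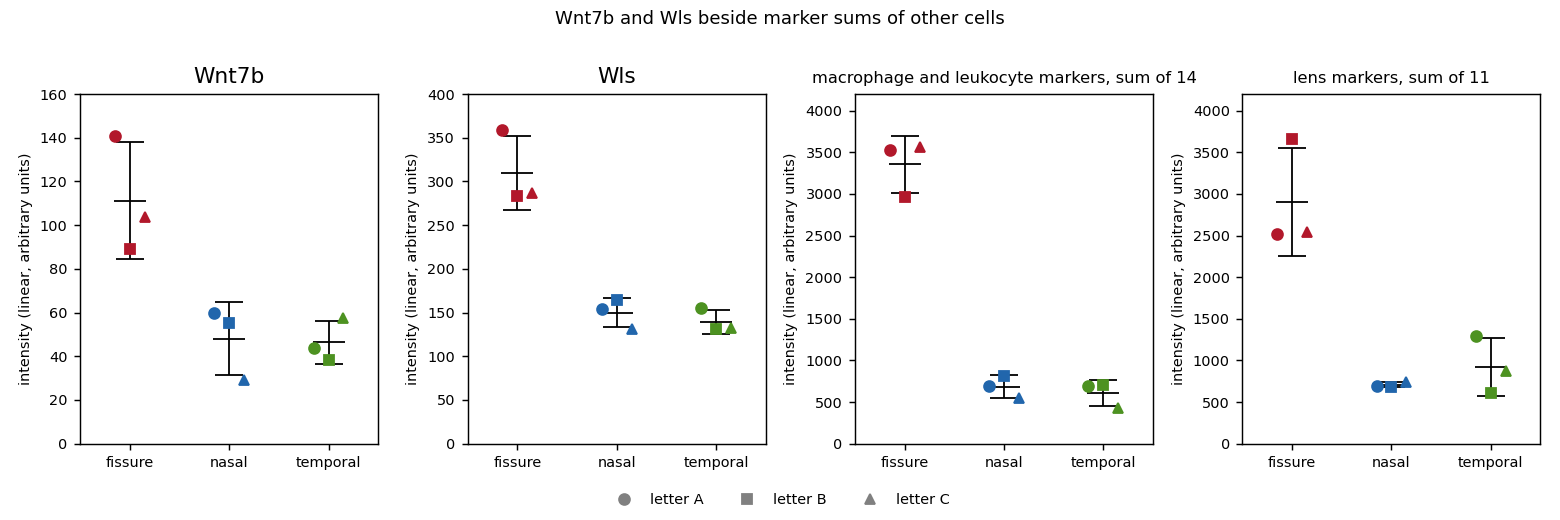
Intensity (linear, arbitrary units) of Wnt7b and of Wls on each array, and summed intensity of the macrophage and leukocyte markers and of the lens markers, by region. Points are arrays, with 1 marker shape per letter, lines and bars are mean and SD over 3 arrays. All 4 are higher on every fissure array than on any nasal or temporal array.

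Wnt5a, the ligand best known for signalling outside the beta-catenin branch, showed a difference that did not pass. Its main probe set read 56.3, 56.1 and 56.2 on the fissure arrays, against 84.8, 70.4 and 58.0 on the nasal and 72.5, 84.1 and 70.1 on the temporal arrays. All 3 fissure values lay under the 6 others, a separation that 5.76% of all genes showed in that direction, though nasal array C was close at 58.0. The log2 change was -0.30 against the mean of nasal and temporal (SE 0.14, 95% interval -0.60 to 0.00, adjusted p = 0.229). Other settings gave -0.37 to -0.15, and with array weights it passed (adjusted p = 0.0437, in a range up to 0.552).

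The other probe sets of Wnt5a were dimmer and did not run alike. The second brightest read 27.8, 34.7 and 21.1 in the fissure and 11.9 to 36.6 elsewhere, with a change of 0.06 (SE 0.19). The third read 16.8, 14.8 and 6.7 in the fissure, against 13.1 to 27.1 in nasal and 19.2 to 25.2 in temporal samples, with a change of -0.38 (SE 0.18, adjusted p = 0.279 over 28899 probe sets). The last passed the 40th percentile on 1 array. Periocular mesenchyme, a tissue around the cup that is known to express Wnt5a, was represented by 15 measured markers that summed to 1482 to 3116 on the fissure, 923 to 1537 on the nasal and 760 to 1660 on the temporal arrays. The sum hides both directions, since 6 of the 15 rose and 2 fell, Postn and Dcn, with Postn at 77.0 to 83.6 on the fissure arrays against 158.2 to 342.2 on the others. Another marker, Eya2, passed the filter on the 3 fissure arrays alone, so a high fissure value was built into its being tested. On fissure arrays A and C the sum was 3110 and 3116 and Wnt5a was as low as on array B, and the part of these cells in its values was not tested.

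Wnt5b, a close relative of Wnt5a, did not differ detectably between regions. It read 164.7, 133.4 and 176.5 in the fissure, against 132.7, 125.4 and 252.3 in nasal and 162.3, 115.1 and 204.3 in temporal samples. The regions overlapped, and the log2 change was -0.02 with a 95% interval from -0.52 to 0.48. Array C was highest and array B lowest within each region. The probe set's name ends in _x_at, which marks sets with probes shared with other sequences. A second probe set read 81.0 to 108.6 in the fissure and 84.8 to 130.6 elsewhere, with a change of -0.17 (SE 0.16).

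Wnt2b, a ligand known from the dorsal and peripheral eye, was too dim to test. It read 11.7, 14.6 and 1.8 in the fissure, 1.9, 9.1 and 6.7 in nasal and 7.2, 2.6 and 21.8 in temporal samples, and 1 of the 9 arrays lay above the 40th percentile. In a fit without the filter its change was 0.08 (95% interval -0.47 to 0.62), which gives no order of the regions.

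Among the targets, Axin2 is the scaffold of the beta-catenin destruction complex whose transcript is most often read as a measure of canonical signalling. It read 177.2, 113.5 and 153.3 in the fissure, 144.6, 141.8 and 140.1 in nasal and 142.6, 109.6 and 170.8 in temporal samples. The means of 148 ± 32.2, 142 ± 2.27 and 141 ± 30.6 (SD, n = 3 each) lay within the spread of the arrays. The log2 change was 0.05 against the mean of nasal and temporal (SE 0.17, adjusted p = 0.910), and its 95% interval ran from -0.32 to 0.42, or 0.80-fold to 1.33-fold. Against nasal it was 0.03 and against temporal 0.06. The other Axin2 probe set read 1.2 to 11.1 and lay under the 40th percentile on all 9 arrays.

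Lef1 encodes a DNA-binding partner of beta-catenin and is itself a target. It read 37.1, 77.4 and 51.8 in the fissure, against 87.6, 63.5 and 102.2 in nasal and 84.0, 73.1 and 109.5 in temporal samples. Fissure arrays A and C lay under all other arrays and array B did not. The change of -0.54 (SE 0.20, 95% interval -0.99 to -0.10) did not pass (adjusted p = 0.133). Without fissure array B it was -0.76 and passed (adjusted p = 0.0320), as it did without the 3 arrays of letter B (-0.89, adjusted p = 0.0171) and with array weights (-0.82, adjusted p = 0.00173), which gave fissure array B a weight of 0.33 and fissure array A one of 3.61. The other 17 settings did not pass, with an adjusted p of up to 0.509. Within letters A and C, Lef1 was lower in the fissure than in nasal cup by -0.96 and -0.80, and within letter B the difference was 0.23. Its second probe set read 1.4 to 11.8 on the 9 arrays, under the 40th percentile on each.

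Nkd1 encodes an inhibitor that binds Dishevelled, the relay protein downstream of Frizzled. Its brightest probe set read 184.8, 139.0 and 152.9 in the fissure, against 103.0, 85.1 and 187.5 in nasal and 130.2, 90.1 and 228.3 in temporal samples. The change of 0.26 (SE 0.27, 95% interval -0.33 to 0.86) did not pass (adjusted p = 0.628). Within letters A and B the fissure was higher than nasal cup by 0.75 and 0.62, and within letter C the difference was -0.27. The 3 other probe sets gave changes of 0.45 (SE 0.22), 0.42 (SE 0.22) and -0.04 (SE 0.20). The one at 0.42, the dimmest, read 30.2, 37.0 and 44.5 in the fissure, against 18.9, 18 and 21.0 in nasal and 15.5, 24.2 and 54.0 in temporal samples, and did not pass (adjusted p = 0.367). The change of -0.04 was smaller than its SE, so its sign is not settled. The other changes were above 0, and none of the 4 probe sets passed.

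**Figure D3:**
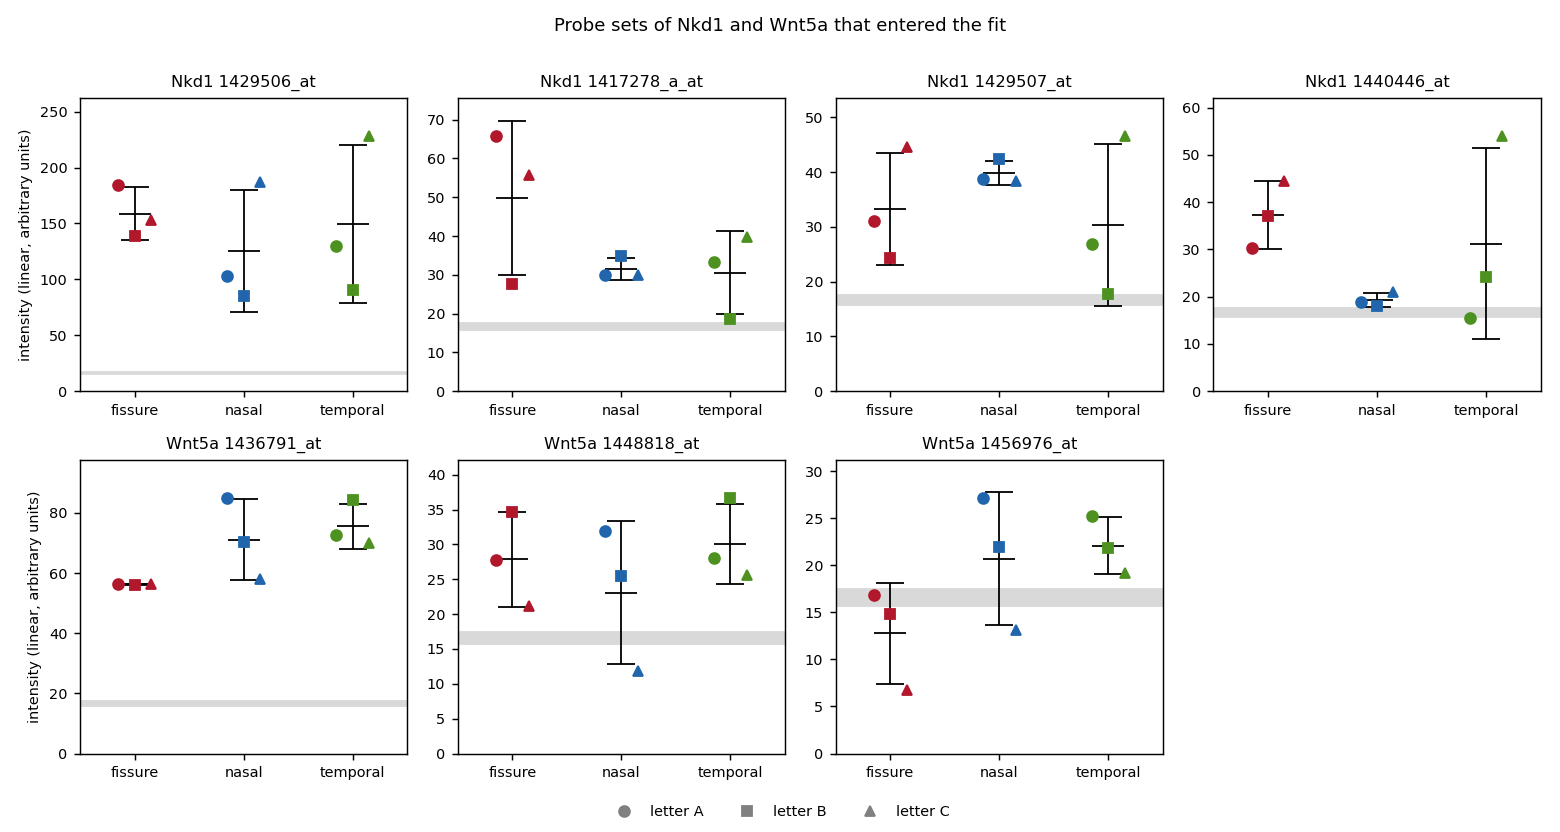
Intensity (linear, arbitrary units) of the probe sets of Nkd1 (top) and Wnt5a (bottom) that entered the fit, by region. Points are arrays, with 1 marker shape per letter, lines and bars are mean and SD over 3 arrays, and the grey band spans the 40th percentiles. By group means, probe sets of 1 gene order the regions differently, and none passed the test.

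Notum encodes a secreted enzyme that removes the lipid from Wnt ligands. It read 9.1, 1.7 and 10.5 in the fissure, against 33.2, 21.0 and 18 in nasal and 5.4, 27.6 and 56.8 in temporal samples. All fissure arrays lay under the 40th percentile, and it passed the filter through 5 arrays of the other regions, so a low fissure value was built into its being tested. The change of -0.82 (SE 0.31, 95% interval -1.51 to -0.13) did not pass (adjusted p = 0.144). Temporal array A overlapped the fissure arrays. Without that array the change was -1.05 and passed (adjusted p = 0.0180, in a range up to 0.363 over 20 settings).

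Sp5 encodes a zinc finger factor of the Sp family that is induced directly by beta-catenin. It read 1.4, 3.6 and 5.1 in the fissure, 0.8, 2 and 0.4 in nasal and 1.2, 3.6 and 0.9 in temporal samples, all under the 40th percentile. It was not tested with the other genes, and a fit without the filter gave a change of 0.15 (95% interval -0.12 to 0.41).

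**Figure D4:**
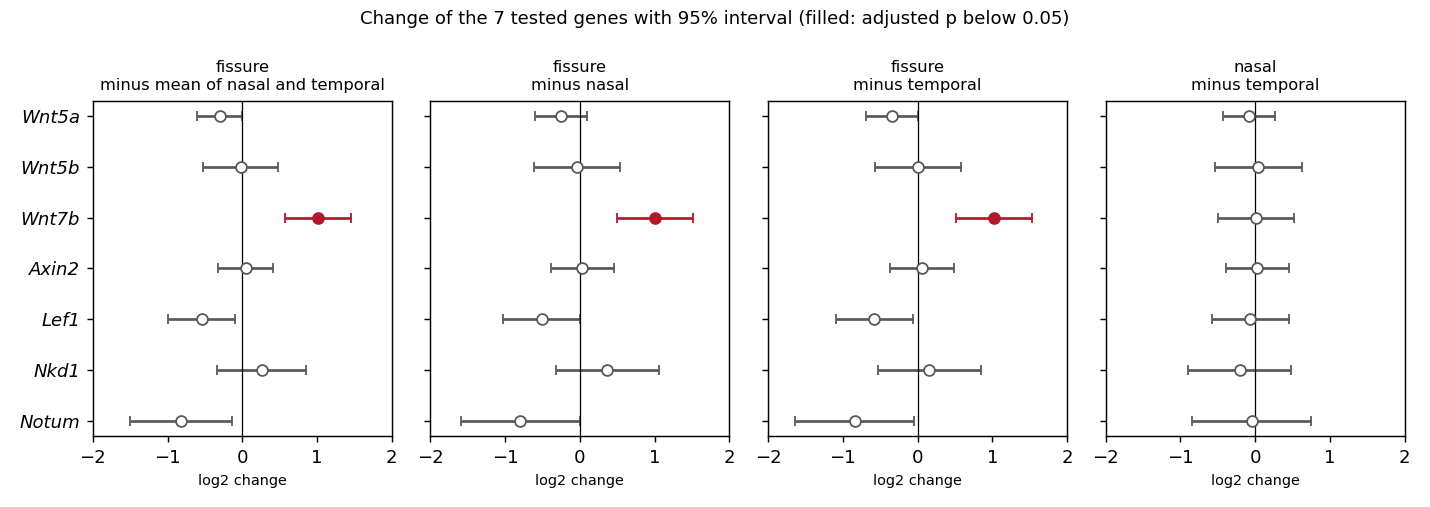
Log2 change with its 95% interval for the 7 tested genes in the 4 comparisons, on the log2(intensity + 16) scale. Filled points passed at an adjusted p below 0.05 over all 12770 genes. Wnt7b is the only filled point, at 1.01, 1.01 and 1.02 in the 3 fissure comparisons, and all 7 intervals for nasal minus temporal hold 0.

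The start regions of the target genes were read from RefSeq (GRCm38.p6), as 250 bases before to 50 after each start. Windows were found for 7 of the 10 genes, 13 in all, since a gene can have several starts, and for Wnt5a, Wnt7b and Notum there was none. They were searched on both strands for CTTTGAT and CTTTGTT, cores that TCF/LEF proteins are known to bind. Of all 32851 windows of this length, 3.73% held the first and 5.85% the second. Either of them was in 9.33% of all windows. Among the 13 windows, 2 held a match to either, one of the 3 windows of Wnt5b and that of Sp5. The windows of Sp5 and Axin2, both on the plus strand, are shown because they belong to the directly induced targets with a match and with none, with the matches in capitals. In that of Sp5, at chr2:70474673-70474972, CTTTGAT begins 104 bases before the start and CTTTGTT lies on the opposite strand from 222 bases before it. That of Axin2 is at chr11:108920099-108920398. A match is a description of the letters and not a bound site, and its absence says nothing of sites outside the window.
Sp5: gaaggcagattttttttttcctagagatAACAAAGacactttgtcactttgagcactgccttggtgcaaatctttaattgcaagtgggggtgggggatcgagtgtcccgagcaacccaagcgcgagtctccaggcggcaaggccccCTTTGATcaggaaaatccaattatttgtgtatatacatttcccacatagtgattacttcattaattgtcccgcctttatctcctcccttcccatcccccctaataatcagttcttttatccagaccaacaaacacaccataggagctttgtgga
Axin2: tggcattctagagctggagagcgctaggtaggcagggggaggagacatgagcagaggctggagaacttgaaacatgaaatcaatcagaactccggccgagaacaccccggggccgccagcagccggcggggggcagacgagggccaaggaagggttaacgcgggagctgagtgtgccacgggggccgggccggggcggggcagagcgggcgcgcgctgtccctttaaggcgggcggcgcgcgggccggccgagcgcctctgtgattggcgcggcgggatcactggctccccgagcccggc

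Around these genes, 113 other genes of the Wnt pathway were grouped by role, and 90 of them were tested. In fissure minus the mean of nasal and temporal, 9 rose and 5 fell, and the median change was 0.02. That is 15.6% of those tested, beside 8.60% of all genes. The lists were chosen with earlier results of these data known, so this difference in shares is a description and not a test. With the letter as a block 13 were higher and 8 lower, beside 1405 and 767 of all 12770 genes. With array weights 18 were higher and 13 lower, beside 2636 and 1464 of all genes. The 15 other Wnt ligands held 7 tested genes, Wnt3a, Wnt6, Wnt7a, Wnt8b, Wnt9b, Wnt10a and Wnt11, with changes from -0.50 to 0.25. In limma 0 of them passed and 1 had an unadjusted p below 0.05, while with array weights 1 was lower. Of the 2 secretion genes, Wls, which encodes the carrier that takes Wnt ligands to the cell surface, rose. It read 359, 283 and 287 on the fissure arrays, against 154, 164 and 132 on the nasal and 156, 131 and 132 on the temporal arrays, and every fissure array lay above all others. Its change was 1.02 (SE 0.14, adjusted p = 8.69e-04), and it passed under all 20 other settings. The leukocyte, lens and ciliary margin marker sums given above moved with Wls too, and their part in it was not tested. The Porcn change, for the enzyme that adds the lipid, was 0.03 and did not pass.

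The other canonical targets went both ways. Of 20 listed, 13 were tested, 2 rose and 3 fell, with a median of -0.26. That is 38.5% called, beside 8.60% of all genes, in a list chosen with earlier results of these data known. With the letter as a block 2 were higher and 4 lower, beside 1405 and 767 of all 12770 genes. Lgr5, an R-spondin receptor, read 137, 175 and 133 on the fissure arrays, against 307, 357 and 332 on the nasal and 328, 341 and 276 on the temporal arrays, a change of -1.05 (SE 0.14, adjusted p = 7.24e-04). The groups did not overlap, and the fall was called under all 20 other settings. Bambi, a decoy receptor of BMP signalling, fell by 1.67 (SE 0.28), and Wif1, which encodes a protein that binds Wnt ligands, by 1.01 (SE 0.24, adjusted p = 0.0232), but Wif1 averaged 7.93 in the fissure, under the 40th percentile on all 3 arrays. It passed the filter through 5 nasal and temporal arrays, so a low fissure value was built into its being tested. Its change ran from -1.99 with a smaller pseudocount to -0.42 with a larger one, and the call was lost in 4 of 20 settings. Against nasal cup alone Wif1 did not pass (adjusted p = 0.0930). The 2 that rose were Dkk1, an antagonist of the Lrp5 and Lrp6 co-receptors (2.13, SE 0.21), and Zcchc12 (1.04, SE 0.23), which is better known as a co-activator in BMP signalling, and whose place among Wnt targets is uncertain. Zcchc12 did not pass without fissure array A or C (adjusted p up to 0.1), nor against temporal cup alone (adjusted p = 0.0804).

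The shared machinery did not pass in this comparison. Of 19 genes of the destruction complex and signal transduction, 17 were tested, with changes from -0.43 to 0.49 and a median of -0.00. In limma 0 passed, 2 had an unadjusted p below 0.05, 1 was higher with the letter as a block, and 1 was higher and 3 lower with array weights. Of 16 TCF partners and co-regulators, 15 were tested, with changes from -0.38 to 0.68. In limma 0 passed and 2 had an unadjusted p below 0.05, and 1 was higher and 1 lower both with the letter as a block and with array weights. Over all 12770 genes, the block called 2172 and array weights 4100. Against temporal cup alone, Tle4, a Groucho co-repressor, was lower by 0.62 (SE 0.16, adjusted p = 0.0419), a call lost in 12 of 20 other settings. Its nasal mean of 897.5 ± 67.8 lay near the fissure mean of 809 ± 20.4, while its temporal mean was 1257 ± 190 (SD, n = 3 each). Fissure and nasal values overlapped (change -0.14, limma adjusted p = 0.695), and every temporal value lay above them. Tle4 thus stood out as high in temporal cup and not as low in the fissure, though its nasal minus temporal change of -0.47 did not pass. No gene of these lists passed in nasal minus temporal, where 4 of the 90 had an unadjusted p below 0.05 in limma, and 0 passed with the block or with array weights.

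**Figure D5:**
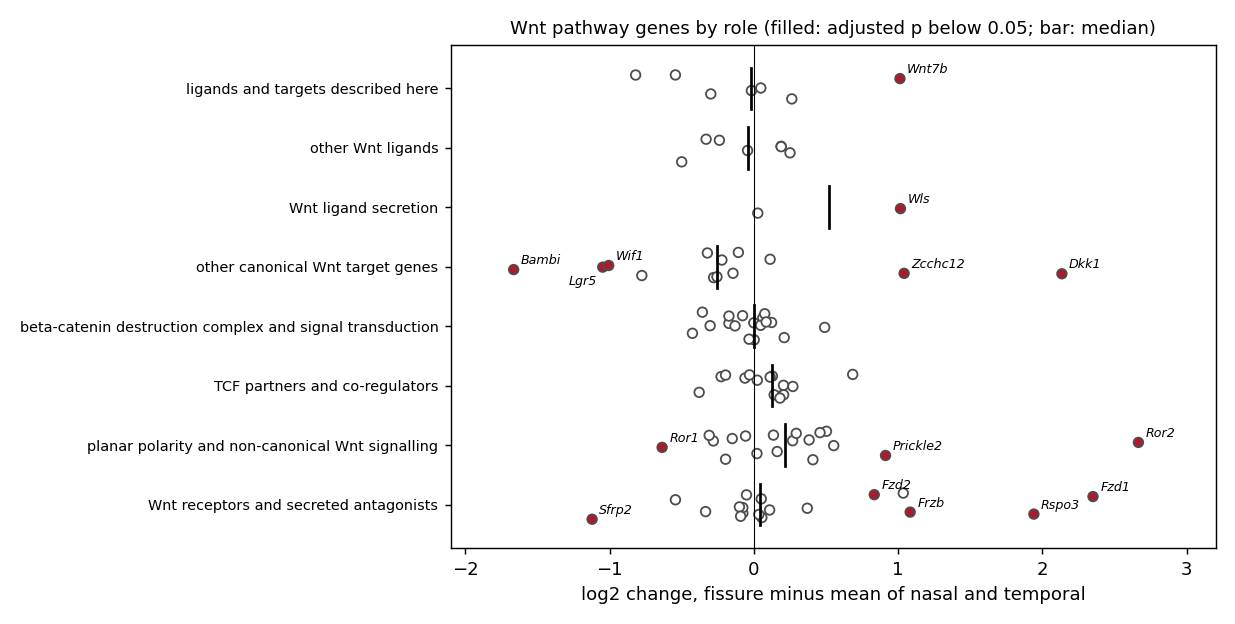
Log2 change in fissure minus the mean of nasal and temporal for tested Wnt pathway genes, 1 point per gene, grouped by role. Filled and named points passed at an adjusted p below 0.05 and vertical bars are medians. Besides Wnt7b, calls lie among secretion, target, polarity and receptor genes, and none among the other ligands, the destruction complex or the TCF partners.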

How the data were processed

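RNA from 3 regions with 3 samples each was measured on Affymetrix Mouse Genome 430 2.0 arrays, per the labels. The deposited values are linear intensities, with the same trimmed mean of 150 on every array (2% off each end). The summarisation and scaling steps of the authors are not given in these sources. No detection calls were used, and precision is limited by the number of arrays.

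Of 45101 probe sets, 34945 had 1 symbol, 932 several and 9160 none in the platform table, which can be old, and 64 were controls. Genes entered the test where the main probe set passed the 40th percentile of its array on 3 or more arrays, and log2 was taken of intensity + 16. All 9 arrays entered a fit with a mean for each region in limma 3.58.1 (R 4.3.3, lmFit and eBayes), with Benjamini-Hochberg adjustment over all genes. Probe sets of 1 gene were compared in a second fit over 28899 probe sets. The fit was tested on simulated data. Start windows were searched for all 10 genes, since the called gene had none.

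The genes and lists were chosen with earlier results of these data known. Named genes were the 10 described, up to 6 called genes per pathway list by smallest p, and the 3 most correlated with a called gene. To see whether letters pair samples, deviations from each region's mean were correlated, at 0.166 to 0.487 in the 9 pairs that share a letter and at -0.438 to 0.218 in the 18 that do not, and since each of the 9 exceeded 0.1, letters count here as pairs, on the data and not the labels. The main fit has no term for the letters, so its p-values leave this pairing out, and the block is the setting that uses it. Alternatives covered the filter, normalization, pseudocount, probe set summary, variance model, array weights, the block and leaving out each array. Fits without letter B and with the Gapdh ratio as a covariate were added after seeing the data. Figures were drawn with matplotlib 3.10.9.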

Additional observations from a re-analysis of the deposited data

How the results depend on the processing

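The number of genes called was the most changeable quantity. With array weights it was 4100 for fissure minus the mean of nasal and temporal, 2675 for fissure minus nasal, 3133 for fissure minus temporal and 10 for nasal minus temporal, against 1098, 814, 685 and 6 as reported. With the letter as a replicate block it was 2172, 1592, 1541 and 17, and Wnt7b stayed the one gene of the 10 called in each fissure comparison (adjusted p = 0.00552, 0.0146 and 0.0147). The block changed no other call among the 10. For nasal minus temporal the count was 3 without letter B and 10 with the Gapdh ratio as a covariate. Leaving out 1 array gave 545 (fissure array A) to 1721 (fissure array B), 420 to 1245, 372 to 1161 (the same arrays) and 2 to 8 genes. The count also moved by over 1.5 times without fissure array C (590, 460 and 403 genes in the fissure comparisons), against nasal without nasal array A (437), against temporal without temporal array A (450) or B (447), and in nasal minus temporal without nasal array B (3) or temporal array A (2), B (2) or C (3). Of the 10 genes, array weights called 3 in fissure minus the mean of nasal and temporal (Wnt7b, Wnt5a and Lef1) and 2 each against nasal and against temporal (Wnt7b and Lef1). Without letter B there were 2 in fissure minus the mean and 2 in fissure minus nasal. Leaving out 1 array gave 0 to 2 in the first comparison, 0 to 1 in fissure minus nasal, 0 to 1 in fissure minus temporal and 0 to 0 in nasal minus temporal. Wnt7b lost its call against nasal and against temporal, leaving 0 genes, with a pseudocount of 1 (adjusted p = 0.0525 and 0.0593) and with the mean of all probe sets (0.108 and 0.112), where its dim second probe set enters. It also lost both without fissure array A (0.118 and 0.123) or C (0.0671 and 0.0687), lost the one against nasal without nasal array C (0.0802), and lost the one against temporal without temporal array A (0.0857) or B (0.0978) or letter B (0.0645). The cause was not tested. No called value changed sign.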

Other observations

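Genes of planar polarity and of the Wnt receptors were measured on the same arrays. Of 18 tested genes of planar polarity and non-canonical signalling, 2 rose and 1 fell in fissure minus the mean of nasal and temporal, and the median change was 0.21 on the log2 scale. That is 16.7% called, beside 8.60% of all genes, in a list chosen with earlier results of these data known. With the letter as a block 3 were higher and 1 lower, beside 1405 and 767 of all 12770 genes. With array weights 7 were higher and 1 lower, beside 2636 and 1464 of all genes. Prickle2, a core polarity gene, read 93.6, 72.2 and 84.9 on the fissure arrays, against 22.2 to 46.0 on the nasal and 30.4 to 47.2 on the temporal arrays, a change of 0.91 (SE 0.18, limma adjusted p = 0.00779, and 0.0573 without fissure array A). The receptor gene Ror2 rose by 2.67 (SE 0.27) and passed in all 20 other settings, and its relative Ror1 fell by 0.64 (SE 0.15, adjusted p = 0.0230), at 178, 245 and 205 on the fissure arrays against 293 to 393 on nasal and 286 to 352 on temporal arrays. Ror1 lost its call with the mean of all its probe sets, where the change was -0.37 (adjusted p = 0.114), and without fissure array A or C or nasal array A (adjusted p up to 0.146). Against temporal cup alone Ror1 did not pass (adjusted p = 0.0883). The ligand Wnt5a, which binds Ror proteins, did not pass.

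Of 18 tested receptors and secreted antagonists, 4 rose and 1 fell, which is 27.8% called beside 8.60% of all genes. This list too was chosen with earlier results of these data known. With the letter as a block 5 were higher and 2 lower, beside 1405 and 767 of all 12770 genes. The Frizzled receptor gene Fzd1 read 3022, 1800 and 2737 on the fissure arrays, against 482 to 563 on the nasal and 374 to 549 on the temporal arrays, a change of 2.35 (SE 0.19, adjusted p = 2.57e-05). Rspo3, which encodes a secreted R-spondin that enhances Wnt signalling, read 112.6, 105.1 and 108.9 on the fissure arrays, against 12.9 to 23.1 on the nasal and 5.4 to 24.8 on the temporal arrays, a change of 1.94 (SE 0.19, adjusted p = 1.03e-04). Neither overlapped between fissure and the other regions, and both passed in all 20 other settings. Fzd2 averaged 628 ± 92.0 on fissure arrays, 375 ± 74.6 on nasal arrays and 320 ± 40.1 on temporal arrays (SD, n = 3 each), a change of 0.83 (SE 0.16), and did not pass without fissure array C (adjusted p = 0.0582). Frzb, a secreted antagonist, averaged 49.7 ± 3.33 on fissure, 13.1 ± 6.96 on nasal and 19.3 ± 11.8 on temporal arrays, and did not pass without fissure array A or C or with a pseudocount of 1 (adjusted p = 0.0677, 0.0611 and 0.0735). Against temporal cup alone Frzb did not pass (adjusted p = 0.0628). Sfrp2, another secreted antagonist, fell by 1.12 (SE 0.24, adjusted p = 0.0148) and did not pass without fissure array A (adjusted p = 0.0585). Its arrays overlapped, with fissure array C at 2372 and nasal array B at 2308, and against nasal cup alone it did not pass (adjusted p = 0.0588).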
